A study of Loxodonta africana with 12 samples.

Results

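The genes of the T cell receptor complex and its coreceptors were followed across 12 RNA libraries made from blood of the African elephant, Loxodonta africana. The irradiated groups had received 2 Gy and were taken at 5 h and at 24 h, and the untreated groups were taken at the same times, so that 4 groups hold 3 libraries each. The labels name blood as the source and give neither the animals, their age, a sort, nor how the cells were kept. Nothing tells separate animals or cultures from repeat preparations, so a p-value here speaks of the spread among these libraries alone and may be a technical one. The genes were chosen by symbol from a list of 9, namely CD3E, CD3D, CD3G, CD247, CD4, CD8A, CD8B, LCK and ZAP70. Of these, 8 were found among the 16406 gene rows. No row carried the symbol CD3D, so CD3D was not analysed under its name. All 8 passed the filter on low counts at both times.

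The T cell receptor is a pair of variable chains that bind a peptide held by an MHC molecule and have almost no cytoplasmic tail of their own. They are carried to the surface and coupled to the cell interior by the CD3 chains epsilon, delta and gamma and by the zeta chain. LCK, a SRC family kinase held on the tails of the coreceptors CD4 and CD8, phosphorylates the tyrosine motifs of these chains, and ZAP70 then docks there and relays the signal. Helper T cells carry CD4, which binds MHC class II, and cytotoxic T cells carry CD8, usually a pair of an alpha and a beta chain, which binds MHC class I. In humans, CD4 is also found on monocytes and macrophages, and the zeta chain, LCK, ZAP70 and the CD8 alpha chain are also found in natural killer cells.

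In the elephant annotation used by the authors (L_africana_Jul_2009), the coreceptor genes CD8B (ENSLAFG00000006063) and CD8A (ENSLAFG00000003913) lie on the plus strand of scaffold 86, at 1527961 to 1537802 and at 1598895 to 1603554. CD3E (ENSLAFG00000011291) and CD3G (ENSLAFG00000011298) lie on the plus strand of scaffold 58, at 5975010 to 5979797 and at 5995511 to 6000157. CD247 (ENSLAFG00000025660), which encodes the zeta chain, lies on the minus strand of scaffold 33 at 18880694 to 18893712. LCK (ENSLAFG00000011490) spans 10846307 to 10855714 on scaffold 34, ZAP70 (ENSLAFG00000030913) spans 2238863 to 2258029 on scaffold 129 and CD4 (ENSLAFG00000029166) spans 51648579 to 51668985 on scaffold 15. No other annotated gene overlaps any of the 8. Counts are summed over a gene's exons, whose joint length ranges from 318 bases for CD8B to 2029 bases for ZAP70.

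Library totals at 5 h ran from 31129422 to 38138163 counts in irradiated and from 31059389 to 35964159 in untreated libraries. At 24 h they ran from 18022475 to 23805619 counts in irradiated and from 22924260 to 37356501 in untreated libraries. A single receptor gene held between 105 and 6923 counts in a library. Levels are given as CPM (counts scaled to a common library size) with TMM factors over all 12 libraries.

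Length-corrected levels put the signalling chain CD3E at the top and the coreceptor CD4 or the kinase ZAP70 at the bottom. On the authors' FPKM scale, which divides by exon length, CD3E averaged 107 ± 15.1 in irradiated and 191 ± 16.1 in untreated libraries at 24 h (SD, n = 3 each). At 5 h the order of mean FPKM was the same in irradiated and untreated libraries, with CD3E first, followed by LCK, CD3G, CD8B, CD8A, CD247, ZAP70 and CD4. That order depends on annotated exon length, which is 318 bases for CD8B and 708 bases for CD8A. Without length correction CD8B was below CD8A in both groups at 5 h. Whether the gene models are complete was not tested. In both groups 3 neighbouring pairs in the FPKM order at 5 h had overlapping ranges, namely CD3E with LCK, CD3G with CD8B and CD8B with CD8A. CD4 was lowest at 5 h, at 3.78 ± 1.38 FPKM in irradiated and 5.13 ± 1.07 FPKM in untreated libraries (SD, n = 3 each). At 24 h the order of means in irradiated libraries was CD3E, LCK, CD3G, CD247, CD8B, CD8A, CD4 and ZAP70, and the ranges of every neighbouring pair overlapped except CD3E with LCK and CD3G with CD247. In untreated libraries at 24 h the order was CD3E, LCK, CD3G, CD8B, CD247, CD8A, ZAP70 and CD4, and the overlapping neighbours were CD8B with CD247, CD247 with CD8A, and ZAP70 with CD4.

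**Figure D1:**
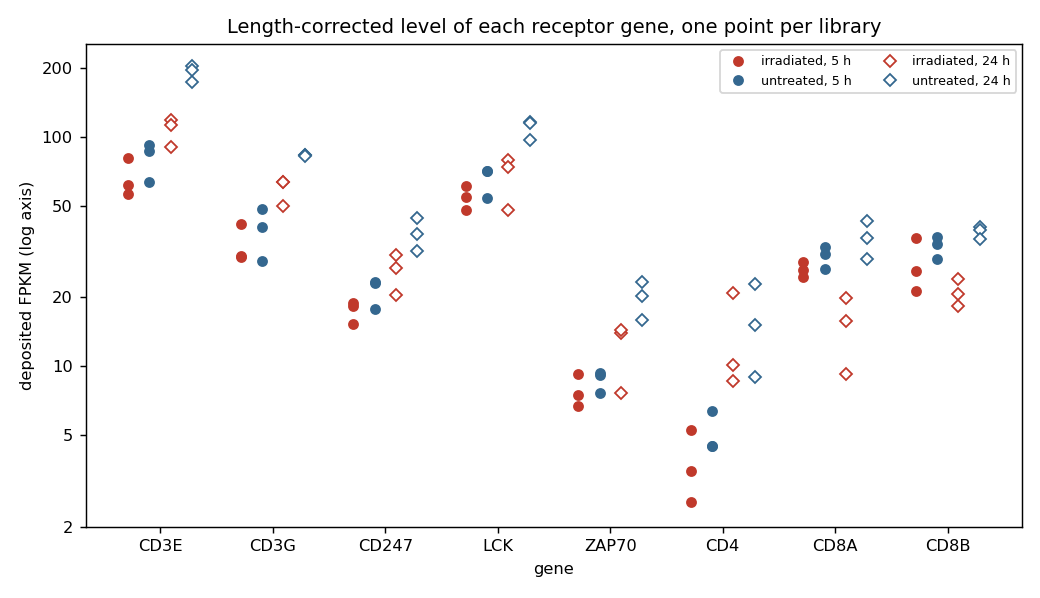
The authors' FPKM values of the 8 genes on a log axis, with one point per library, irradiated in red and untreated in blue, 5 h filled and 24 h open. CD3E was the highest gene by group mean in each of the 4 groups, and CD4 was the lowest in 3 of them.

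At 5 h after irradiation all 8 genes had a log2 fold change below 0, as 50.4% of all genes did. Their irradiated and untreated ranges overlapped for every gene, where 8.43% of all genes were lower without overlap. With edgeR's quasi-likelihood test none of the 8 passed an adjusted p of 0.05, against 1.6% of all 12969 genes tested (0.478% lower), none reached an unadjusted p of 0.05, as 12.9% of all genes did, and DESeq2 also called 0. The median of the 8 log2 fold changes was -0.25, beside -0.0015 over all genes. At 5 h the same-numbered irradiated and untreated libraries deviated together, so a fit with the replicate number as a block belongs beside these values. That fit called 4 of the 8 lower, where it called 20.5% of all genes (9.92% lower and 10.6% higher).

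Among the CD3 chains at 5 h, CD3E and CD247 were lower in every replicate pair and CD3G was not. The share of all genes lower in every pair is not given here. CD3E had 37.8, 40.7 and 54.1 CPM in the irradiated libraries of replicates 1, 2 and 3, against 42.1, 59.4 and 57.4 CPM in the untreated ones. Each irradiated library was below its same-numbered untreated library, although the groups overlapped. Its log2 fold change of -0.27 ± 0.17 (SE) had an adjusted p of 0.58 without the block and 0.016 with it. CD3G had 19.5, 19.1 and 26.8 CPM in irradiated libraries, against 18.2, 24.9 and 30.7 CPM in untreated libraries, and was lower in 2 of the 3 pairs. Its log2 fold change was -0.19 ± 0.21, and neither fit called it (adjusted p = 0.77, and 0.14 with the block). CD247 had 9.9995, 11.8 and 12.3 CPM in irradiated libraries, against 11.5, 14.4 and 15.01 CPM in untreated libraries. It was lower in all 3 pairs, with a log2 fold change of -0.28 ± 0.14 (adjusted p = 0.45, and 0.021 with the block).

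Of the 2 receptor kinases at 5 h, the blocked fit called LCK and did not call ZAP70. LCK had 91.2, 102.6 and 116 CPM in irradiated libraries, against 101.6, 130 and 134 CPM in untreated libraries, and was lower in all 3 pairs. Its log2 fold change was -0.25 ± 0.13 (adjusted p = 0.48, and 0.0017 with the block). ZAP70 had 16.1, 17.6 and 22.1 CPM in irradiated libraries, against 18.1, 21.4 and 21.6 CPM in untreated libraries, and was lower in 2 of the 3 pairs. At -0.14 ± 0.14 it passed in neither fit (adjusted p = 0.73, and 0.20 with the block). The difference between the 2 kinases was not tested.

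Among the coreceptors at 5 h, CD4 had 5.47, 7.42 and 11.2 CPM in irradiated libraries, against 9.51, 9.24 and 13.5 CPM in untreated libraries. Its log2 fold change of -0.42 ± 0.27 was called in the blocked fit (adjusted p = 0.58, and 0.0057 with the block), and it was lower in all 3 pairs. CD8A had 20.4, 21.7 and 23.7 CPM in irradiated libraries, against 21.9, 24.6 and 27.3 CPM in untreated libraries. CD8B had 8.01, 9.58 and 13.5 CPM in irradiated libraries, against 10.9, 12.2 and 13.6 CPM in untreated libraries. Both CD8 chains were lower in all 3 pairs, by a margin that was narrow in the third pair of CD8B. Their log2 fold changes were -0.18 ± 0.11 and -0.24 ± 0.19, with adjusted p of 0.56 and 0.67, and 0.064 each with the block.

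**Figure D2:**
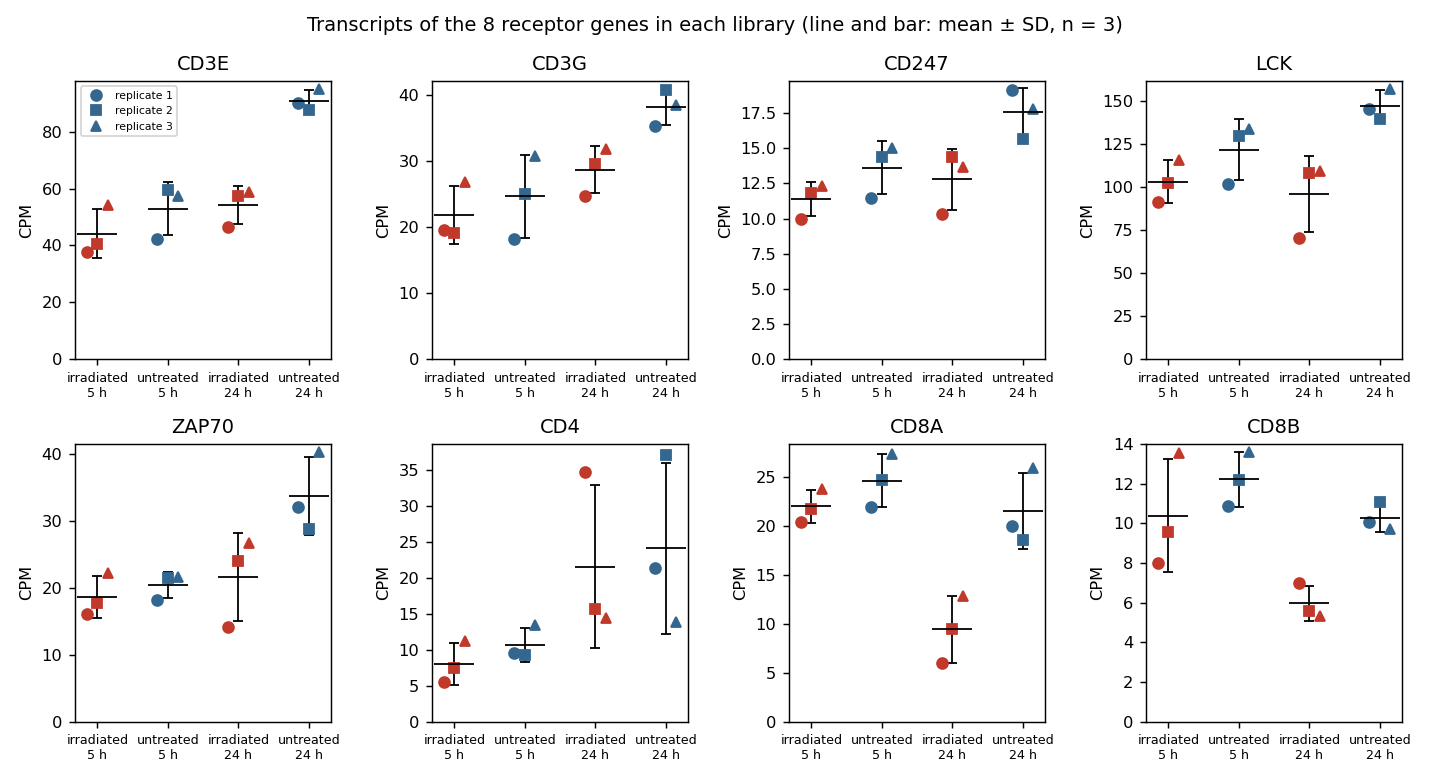
CPM of each of the 8 genes in every library, with the irradiated and untreated groups at 5 h and then at 24 h on the x axis, symbols for the replicate number, and the mean ± SD of 3 libraries as line and bar. At 24 h the irradiated libraries lie below all untreated libraries for every gene but CD4.

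At 24 h CD3E, CD8A and CD8B were called lower in irradiated than in untreated libraries, and 7 of the 8 genes lay below every untreated library. The 3 called genes compare with 6.73% of all 14373 genes tested that were called in either direction, 4.94% lower and 1.8% higher. The 7 genes whose groups do not overlap compare with 16.8% of all genes that were lower without overlap. Without irradiated replicate 2, or without any 1 untreated library, only CD3E of the 3 remained called. Over all genes the calls dropped in these fits too, from 968 to 293 without irradiated replicate 2. They were 416, 548 and 369 without untreated replicate 1, 2 and 3. An unadjusted p of 0.05 was reached by 7 of the 8, all but CD4, where 21.5% of all genes reached it, and the median of the 8 log2 fold changes was -0.64, beside 0.01 over all genes. These are bulk samples, so fewer T cells and less of these transcripts per T cell cannot be told apart.

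Of the signalling chains at 24 h, CD3E was the most clearly lower in irradiated libraries. Mean CD3E was 44.2 CPM at 5 h and 54.3 CPM at 24 h in irradiated libraries. In untreated libraries it was 53.0 CPM at 5 h and 91.0 CPM at 24 h. At 24 h it had 46.6, 57.3 and 58.8 CPM in irradiated libraries, against 90.3, 87.8 and 94.9 CPM in untreated libraries. The gap between the groups was wider than either group's range. The log2 fold change was -0.76 ± 0.11 (adjusted p = 0.011, edgeR), and its call held in each fit that left out 1 library. CD3G had 24.7, 29.5 and 31.8 CPM in irradiated libraries, against 35.3, 40.8 and 38.5 CPM in untreated libraries. CD247 had 10.3, 14.4 and 13.7 CPM in irradiated libraries, against 19.2, 15.7 and 17.8 CPM in untreated libraries. Neither group pair overlapped, yet the log2 fold changes of -0.42 ± 0.11 for CD3G and -0.47 ± 0.16 for CD247 missed the threshold (adjusted p = 0.068 and 0.14). DESeq2 called CD3G at an adjusted p of 0.029, and edgeR with library totals did at 0.040.

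The kinases at 24 h were lower on average and more spread among the irradiated libraries. LCK had 70.5, 108.6 and 109 CPM in irradiated libraries, against 146, 140 and 157 CPM in untreated libraries. ZAP70 had 14.2, 24.0 and 26.6 CPM in irradiated libraries, against 32.0, 28.8 and 40.2 CPM in untreated libraries. Irradiated replicate 1 was the lowest library for both. The log2 fold changes were -0.63 ± 0.17 for LCK (adjusted p = 0.080) and -0.65 ± 0.24 for ZAP70 (adjusted p = 0.17). Without irradiated replicate 1 LCK passed, at -0.46 with an adjusted p of 0.042, and ZAP70 stood at -0.43 with an adjusted p of 0.15. DESeq2 also called LCK, at an adjusted p of 0.017, as did the fit of all 12 libraries, at 0.030.

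Of the coreceptors at 24 h, both CD8 chains were called lower in irradiated libraries and CD4 was not called. CD8A had 5.99, 9.45 and 12.8 CPM in irradiated libraries, against 19.9, 18.6 and 25.9 CPM in untreated libraries, a log2 fold change of -1.21 ± 0.27 (adjusted p = 0.042). CD8B had 6.98, 5.60 and 5.33 CPM in irradiated libraries, against 10.04, 11.1 and 9.74 CPM in untreated libraries, a log2 fold change of -0.79 ± 0.15 (adjusted p = 0.024). CD8A was lowest in irradiated replicate 1 and CD8B was lowest in irradiated replicate 3. Both calls were marginal. Without 1 library the log2 fold change ranged from -1.50 to -0.97 for CD8A and from -0.93 to -0.72 for CD8B. CD8A missed the threshold without irradiated replicate 2 (adjusted p = 0.15) or without untreated replicate 1, 2 or 3 (0.081, 0.070 and 0.11). CD8B missed it without irradiated replicate 2 or 3 (0.11 and 0.071) or without untreated replicate 1, 2 or 3 (0.074, 0.078 and 0.072).

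CD4 was the gene of the 8 whose groups overlapped at 24 h. It had 34.7, 15.7 and 14.4 CPM in irradiated libraries, against 21.4, 37.1 and 13.9 CPM in untreated libraries. The groups overlapped throughout, and each held 1 library well above its other two. A log2 fold change of -0.16 ± 0.44 (adjusted p = 0.87) had a 95% interval from -1.19 to 0.88, so a difference as large as that of CD3E lies within it. Irradiated replicate 1 had the lowest CD3E, CD3G, CD247, CD8A, LCK and ZAP70 of its group. Without that library the log2 fold change of CD4 was -0.69 (adjusted p = 0.31), and without untreated replicate 2 it was 0.30 (adjusted p = 0.82). Without irradiated replicate 2 or 3 its sign also turned, to 0.01 and 0.05.

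**Figure D3:**
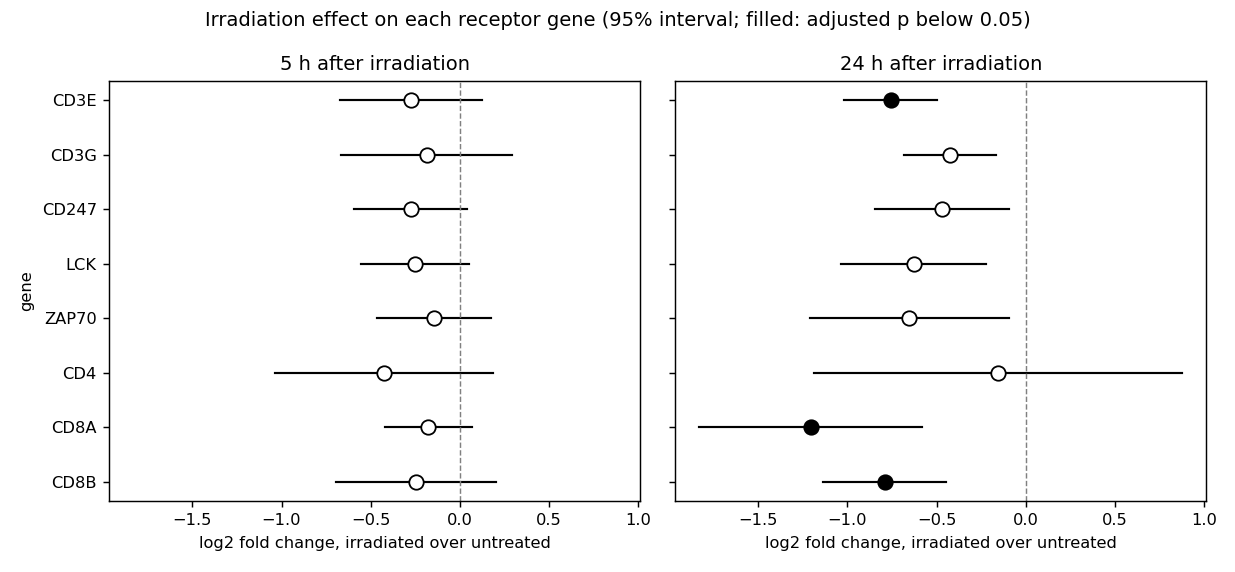
Log2 fold change, irradiated over untreated, of each gene at 5 h (left) and 24 h (right), with 95% intervals from edgeR and filled circles where the adjusted p was below 0.05. All 16 points are at or below -0.14, and the filled ones are CD3E, CD8A and CD8B at 24 h.

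Markers of other blood cells differed between the same libraries. Calls among them compare with 4.94% of all genes called lower and 1.8% called higher at 24 h. At 5 h the shares of all genes were 0.478% lower and 1.12% higher. The summed level of the 11 T cell markers in the tables, which include the 8 genes, was 371 to 477 CPM in irradiated and 611 to 659 CPM in untreated libraries at 24 h. The 9 natural killer and cytotoxic markers with a row summed to 162 to 236 CPM in irradiated and 415 to 475 CPM in untreated libraries. Of these 9, 5 were called lower, and KLRB1, KLRK1, GNLY, GZMB, GZMM and FCGR3A of that list had no row. The 9 B cell markers summed to 58.9 to 78.3 CPM in irradiated and 398 to 488 CPM in untreated libraries, and all 9 were called lower. The 6 monocyte and macrophage markers summed to 3083 to 3648 CPM in irradiated and 2198 to 2768 CPM in untreated libraries, and 2 of the 6 were called higher, with no row for CD14, LYZ, FCGR1A, VCAN or FCN1. The 4 dendritic markers summed to 254 to 301 CPM in irradiated and 359 to 496 CPM in untreated libraries at 24 h, with 2 of 4 called lower, and the 5 platelet markers to 102 to 132 CPM in irradiated and 47.6 to 63.0 CPM in untreated libraries, with 3 of 5 called higher. The 6 neutrophil markers overlapped at 24 h, at 38.1 to 114 CPM in irradiated and 27.4 to 44.6 CPM in untreated libraries, and none was called. At 5 h the T cell markers summed to 331 to 453 CPM in irradiated and 345 to 486 CPM in untreated libraries, and the natural killer markers to 212 to 273 CPM in irradiated and 234 to 340 CPM in untreated libraries, so both overlapped. Sums that did not overlap at 5 h were those of the B cell markers, at 186 to 244 CPM in irradiated and 294 to 357 CPM in untreated libraries, and of the dendritic markers, at 165 to 200.4 CPM in irradiated and 290.003 to 329 CPM in untreated libraries, with 1 marker of each list called lower. The neutrophil markers summed to 188 to 212 CPM in irradiated and 114 to 143 CPM in untreated libraries at 5 h, also without overlap, with 1 of 6 called higher. BANK1 of the B cell list, XCR1 of the dendritic, FCGR3B of the neutrophil and PF4 of the platelet list had no row. No marker with a row was at 0 in any group. The part of other cell types in the levels of the 8 genes was not tested.

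Whether the irradiation effect itself differed between 24 h and 5 h was tested in all 12 libraries. None of the 8 differences passed an adjusted p of 0.05 in edgeR, where 0.882% of 15200 genes did, and 2 had an unadjusted p below 0.05, as 9.95% of all genes did. CD8A had the largest difference, -1.03 ± 0.30 on the log2 scale (unadjusted p = 0.0049, adjusted p = 0.18). DESeq2 called this difference (adjusted p = 0.032), as did edgeR without irradiated 24 h replicate 3 (-1.32, adjusted p = 0.046). CD3E had a difference of -0.49 ± 0.22 (unadjusted p = 0.046, adjusted p = 0.49). CD4 was the only gene with a difference above 0, at 0.26 with a 95% interval from -0.96 to 1.49, and its sign turned without irradiated 24 h replicate 1 (-0.28) or untreated 24 h replicate 3 (-0.02).

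In untreated libraries most of the receptor genes differed between 24 h and 5 h, as most other genes did. The labels do not say how the cells were kept, so time, handling and batch cannot be told apart. In untreated cells 6 of the 8 were called higher at 24 h than at 5 h, where 63.1% of all 13445 genes were called and 32.6% were called higher. CD4 had a log2 fold change of 1.21 ± 0.33 (adjusted p = 0.011), which was 0.71 without untreated 24 h replicate 2 (adjusted p = 0.036). CD3E stood at 0.82 ± 0.14 (adjusted p = 9e-04). ZAP70 rose by 0.76 ± 0.14 (adjusted p = 0.0015) and CD3G by 0.67 ± 0.17 (adjusted p = 0.0083). CD247 and LCK rose by less, 0.41 ± 0.15 and 0.32 ± 0.12 (adjusted p = 0.037 and 0.048). The CD8 chains were the remaining pair, with -0.16 ± 0.14 for CD8A and -0.21 ± 0.13 for CD8B (adjusted p = 0.35 and 0.17). Scaling to library totals put the CD8 chains above 0, at 0.26 and 0.21, and moved the median of all genes to 0.52, against 0.11 with TMM. Relative to that median CD8A stood at -0.26 under both scalings. Library totals also put the called genes CD3E, ZAP70, CD3G, LCK and CD247 over 1.5 times farther from 0, at 1.24, 1.18, 1.09, 0.74 and 0.83.

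Of these time calls 3 were fragile. The call of LCK was lost without any 1 of the 6 untreated libraries (adjusted p = 0.057 to 0.22), and its value was 0.16 without 5 h replicate 1. CD247 lost its call without any 1 of them except 24 h replicate 2 (adjusted p = 0.051 to 0.16), and stood at 0.26 without 5 h replicate 1. CD4 lost it without 5 h replicate 1 (adjusted p = 0.053). DESeq2, the fit with no filter beyond a count above 0, and the fit of all 12 libraries called neither LCK (adjusted p = 0.087, 0.14 and 0.16) nor CD247 (0.059, 0.082 and 0.052). CD8A passed as lower, at -0.35 with an adjusted p of 0.049, when 24 h replicate 3 was left out.

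In irradiated cells CD4 and the CD8 chains moved in opposite directions over the same interval. CD4 rose by 1.49 ± 0.38 (adjusted p = 0.0077), and by 0.87 without irradiated 24 h replicate 1 (adjusted p = 0.018). CD8A fell by 1.17 ± 0.24 in log2 units (adjusted p = 0.0024) and CD8B had a log2 fold change of -0.74 ± 0.22 (adjusted p = 0.016). With library totals in place of TMM, CD8B was not called, at -0.40 (adjusted p = 0.13), while CD247, CD3E and ZAP70 were called higher, at 0.57, 0.69 and 0.61 (adjusted p = 0.018, 0.0047 and 0.043). CD3G rose by 0.45 ± 0.16 (adjusted p = 0.033), a call lost without irradiated 24 h replicate 2 or 3 or irradiated 5 h replicate 1 or 2 (adjusted p = 0.15 to 0.18), with 0.29 without irradiated 24 h replicate 3. It was also lost with DESeq2, with no filter beyond a count above 0 and with all 12 libraries in one fit (adjusted p = 0.053, 0.080 and 0.077), and it was 0.79 with library totals. CD3E stood at 0.35 ± 0.15 (adjusted p = 0.071), and passed without irradiated 5 h replicate 3 (0.48, adjusted p = 0.019) and with at least 1 CPM required in every library of a group (0.44, adjusted p = 0.034). CD247 at 0.22, ZAP70 at 0.27 and LCK at -0.05 did not pass (adjusted p = 0.25, 0.32 and 0.83), although ZAP70 did without irradiated 24 h replicate 1 (0.41, adjusted p = 0.034). The 4 genes called with TMM, CD4, CD8A, CD8B and CD3G, compare with 65.9% of all 14028 genes called, 35.3% higher and 30.6% lower. The irradiated and untreated time courses share the libraries of the irradiation comparisons.

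Ratios of counts within a library do not depend on how libraries are scaled, and they set the receptor genes against each other. With 3 libraries against 3, the exact two-sided permutation test cannot go below p = 0.10, and 9 ratios were compared at each time. At 5 h no ratio separated irradiated from untreated libraries. At 24 h 2 of the 9 did, with exact permutation p = 0.10 and an adjusted value of 0.45 each. CD3G over CD3E was -0.92 ± 0.04 in irradiated and -1.25 ± 0.13 in untreated libraries on the log2 scale (SD, n = 3 each), a difference of 0.33. CD247 over CD3E was -2.09 ± 0.09 in irradiated and -2.38 ± 0.13 in untreated libraries, a difference of 0.29. In both ratios every irradiated library lay above every untreated one.

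The coreceptor ratios were wide at 24 h. CD4 over CD8A was 1.14 ± 1.24 in irradiated and 0.07 ± 0.95 in untreated libraries (SD, n = 3 each, exact permutation p = 0.40), a difference of 1.08 on the log2 scale. CD8A over CD3E differed by -0.48 (exact permutation p = 0.20), whereas CD8B over CD3E differed by -0.04. CD8A over CD8B was near 1 in the untreated libraries at 5 h, at 1.01 with an SD of 0.0049 over 3 libraries. It was -0.22 in irradiated 24 h replicate 1, the only library in which CD8B had more counts than CD8A. LCK over CD3E and ZAP70 over CD3E differed by 0.11 and 0.08 at 24 h, and their groups overlapped.

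**Figure D4:**
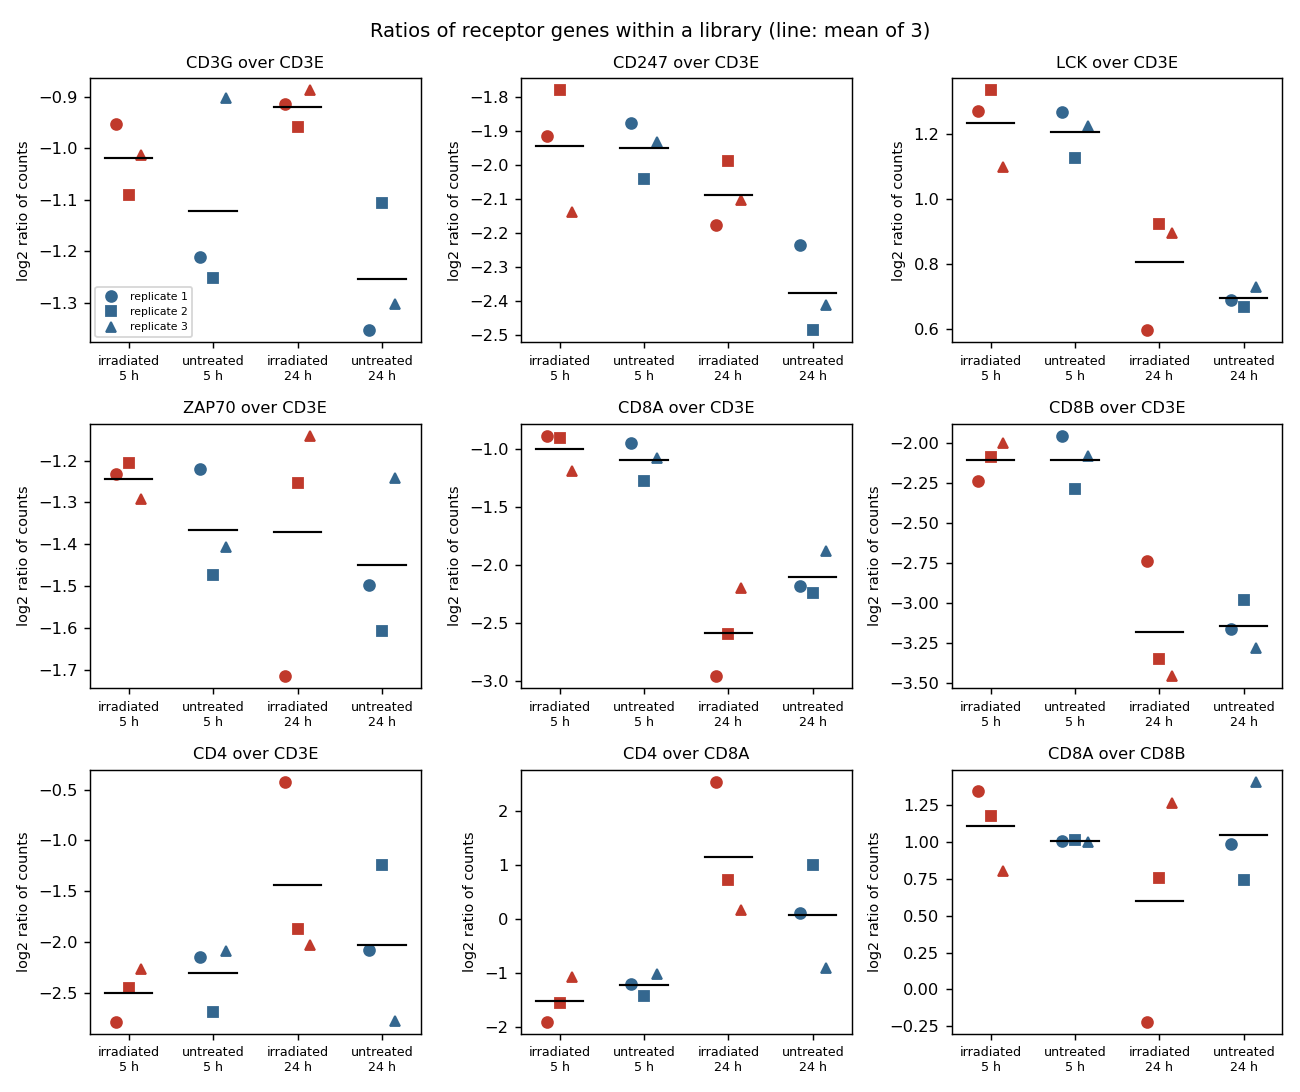
Log2 ratios of counts between receptor genes within each library, for the irradiated and untreated groups at 5 h and 24 h, with symbols for the replicate number and a line at the mean of 3. At 24 h the irradiated and untreated libraries do not overlap for CD3G over CD3E and for CD247 over CD3E.

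The constant region of the alpha chain, TRAC, was the only T cell receptor chain of the 7 listed that could be tested. It was lower in irradiated than in untreated libraries at 24 h. Its mean was 16.9 CPM at 5 h and 16.6 CPM at 24 h in irradiated libraries. In untreated libraries it was 25.6 CPM at 5 h and 34.7 CPM at 24 h. TRAC had 12.6, 17.01 and 20.1 CPM in irradiated libraries, against 35.3, 34.6 and 34.3 CPM in untreated libraries at 24 h. The groups were far apart, with a log2 fold change of -1.08 ± 0.16 (adjusted p = 0.011). At 5 h it had 14.6, 14.9 and 21.2 CPM in irradiated libraries, against 20.4, 27.0 and 29.5 CPM in untreated libraries, a log2 fold change of -0.61 ± 0.19 (adjusted p = 0.22, and 4e-05 with the block). PTCRA, the surrogate alpha chain of thymocytes, had a row but too few counts to be tested.

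Outside the receptor itself, 74 further genes from 6 lists were tested at 24 h, TRAC included, and 11 were called lower and 2 higher, where 4.94% of all genes were called lower and 1.8% higher. At 5 h none of the 6 lists held a called gene in edgeR or DESeq2, and 10 of their 74 genes had an unadjusted p below 0.05, where 12.9% of all genes did. With the replicate block, which called 9.92% of all genes lower and 10.6% higher, the 5 h fit called 4 of 8 surface glycoproteins lower, 2 of 18 adaptors lower and 2 higher, and 5 of 17 kinases and effectors lower and 1 higher. It also called 5 of 16 brakes lower and 1 higher, and 3 of 14 genes of the calcium and NFAT arm lower and 2 higher. The surface glycoproteins that tune the receptor held no called gene among 8 at 24 h, with 4 at an unadjusted p below 0.05 (21.5% of all genes) and 1 called by DESeq2. In that list CD2, an adhesion receptor of T and natural killer cells, had 122, 145 and 151 CPM in irradiated libraries, against 181, 181 and 190 CPM in untreated libraries (log2 fold change -0.41 ± 0.10, adjusted p = 0.067, and 0.012 with DESeq2).

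Of 18 adaptors tested at 24 h, 3 were called lower and 1 higher in irradiated than in untreated libraries, and the list's median was -0.07. SH2D1A, the adaptor of SLAM family receptors, had a log2 fold change of -1.08 ± 0.21 (adjusted p = 0.026). SKAP1, which links the receptor to integrin adhesion, stood at -0.77 (adjusted p = 0.036), and LAX1, a membrane adaptor of T and B cells, at -0.76 (adjusted p = 0.038). LCP2, the scaffold SLP-76 that myeloid cells and platelets also express, was higher by 0.54 in irradiated libraries (adjusted p = 0.043). It had 160, 173 and 199.6 CPM in irradiated libraries, against 116, 111 and 136 CPM in untreated libraries at 24 h. Its means at 5 h were above these, at 704 CPM in irradiated and 602 CPM in untreated libraries. LAT, the membrane scaffold phosphorylated by ZAP70, stood at -0.11 (adjusted p = 0.83), and at 0.12 without irradiated replicate 1.

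Among 17 kinases and effectors 4 were called lower and 1 higher in irradiated than in untreated libraries at 24 h, with a list median of -0.12. PRKCQ, the protein kinase C theta of T cells, had 28.7, 30.2 and 32.5 CPM in irradiated libraries, against 55.3, 47.1 and 48.3 CPM in untreated libraries. Its log2 fold change was -0.73 ± 0.11 (adjusted p = 0.010), and the groups were far apart. RHOH stood at -0.80 (adjusted p = 0.014) and UNC119 at -0.997 (adjusted p = 0.019). RASGRP1, an activator of RAS that was named after its values were seen, stood at -0.48 (adjusted p = 0.030). FYN, the other SRC family kinase of T cells and one that other blood cells also express, was higher by 0.43 in irradiated libraries (adjusted p = 0.028). Its mean at 24 h was 146 CPM in irradiated and 108 CPM in untreated libraries. Both were below the means at 5 h, 283 and 301 CPM.

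Of 16 brakes on the receptor 1 was called lower at 24 h and of 14 genes of the calcium and NFAT arm 2 were, beside 4.94% of all genes. DESeq2 called 2 higher and 2 lower in each of these 2 lists, and 2 adaptors higher and 4 lower. Of all 14373 genes it called 606 higher and 1109 lower. Among the brakes SLA2 was lower in irradiated libraries (log2 fold change -0.98, adjusted p = 0.029). In the calcium and NFAT arm PPP3CC, a catalytic subunit of calcineurin, was lower by 0.97 on the log2 scale (adjusted p = 0.0038). STIM2, a calcium sensor of the endoplasmic reticulum, stood at -0.60 (adjusted p = 0.011). PPP3CC had 21.3, 21.9 and 25.3 CPM in irradiated libraries, against 43.8, 40.5 and 48.9 CPM in untreated libraries. The list medians were -0.10 and -0.25, beside 0.01 over all genes. B cell markers were lower in the same irradiated libraries, and the part of B cells in the levels of LAX1 and the other shared genes was not tested.

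Of the 13 list genes called at 24 h, only PPP3CC kept its call without any 1 library. Over all genes, fits without 1 library called 293 to 1061, against 968 with all 6. TRAC and PRKCQ lost it without irradiated replicate 2 (adjusted p = 0.054 each). RHOH lost it without irradiated replicate 2 or untreated replicate 1 or 2, STIM2 without irradiated replicate 2 or untreated replicate 1 or 3, and UNC119 without irradiated replicate 3 or untreated replicate 1 or 3. SH2D1A, LAX1 and SLA2 lost it without irradiated replicate 2 or any untreated replicate. FYN, LCP2 and RASGRP1 lost it without any 1 library but irradiated replicate 1, and SKAP1 without each of the 6. FYN and LCP2 also lost it with library totals (adjusted p = 0.061 and 0.071) and with no filter beyond a count above 0 (0.051 and 0.062). Without 1 library the adjusted p of a lost call lay between 0.05 and 0.16.

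**Figure D5:**
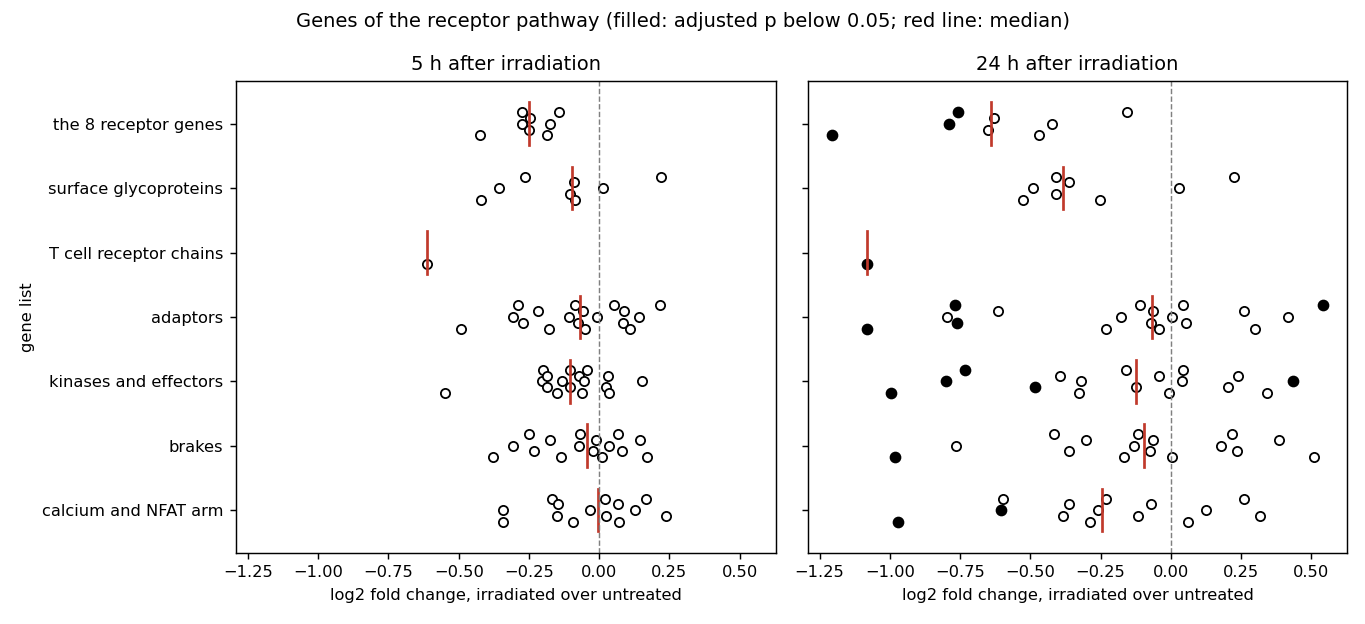
Log2 fold change, irradiated over untreated, of the 8 receptor genes and of 6 lists of receptor pathway genes at 5 h (left) and 24 h (right), with one circle per gene, filled where the adjusted p was below 0.05, and a red line at the median. At 24 h the medians are -0.64 for the 8 receptor genes, -0.38 for the surface glycoproteins and -0.07 for the adaptors.

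Genes whose levels followed CD3E most closely were ranked by Pearson's r of log2 CPM over the 12 libraries, among 12973 genes with a symbol, as a description in which all points share library, depth and group. The 5 highest were OXCT1, an enzyme of ketone body use (r = 0.98), ACSF2 (0.98), KIR3DX1 (0.98), ADCY3, an adenylyl cyclase (0.98), and NEDD4, a ubiquitin ligase (0.97). The other receptor genes stood at 0.93 for CD3G, 0.92 for CD247, 0.92 for ZAP70, 0.81 for LCK, 0.58 for CD4, 0.18 for CD8A and 0.16 for CD8B. Once each group's mean was subtracted, the highest were ADCY3 (0.97), CREG2 (0.97), CD2 (0.96), YPEL2 (0.96) and CD5 (0.95). On that measure CD3G stood at 0.88, LCK at 0.87, CD247 at 0.81, ZAP70 at 0.78, CD8A at 0.64, CD8B at 0.48 and CD4 at -0.0018. Within groups CD4 had the lowest r with CD3E of the 7 other receptor genes.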

How the data were processed

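Per the labels' protocols, stranded Illumina libraries were made from ribosome-depleted total RNA. The authors deposited 1 table per time with raw read counts per gene, FPKM values and total exon length, per the file headers. The strand setting, aligner and counter were not given in the sources used here. Not used were 12 regularized log columns. Counts were the input of every test, and deposited FPKM values served only to compare levels between genes within a group. The receptor genes, the gene lists and the tests were chosen with earlier results of these data known.

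Counts were fitted for all genes with edgeR 4.0.16 in R 4.3.3, using TMM, filterByExpr and the quasi-likelihood F test, with p-values adjusted after Benjamini and Hochberg over all genes tested and a threshold of 0.05. Comparisons within a time or treatment used their 6 libraries, and the difference between times used all 12. SE is the absolute log2 fold change over the square root of F. The same-numbered libraries correlated in their deviations from the group means by 0.37, 0.33 and 0.57 at 5 h. The labels do not say what the numbers mean, so the pairing at 5 h is read from these values alone. At 24 h the same-numbered libraries correlated by 0.12, -0.40 and 0.65, so the numbers do not pair them. Irradiated replicate 1 correlated there with untreated replicate 2 by 0.49, and irradiated replicate 2 with untreated replicate 1 by 0.43. The 24 h libraries may therefore be matched in another order, which no fit took up. Ratios used counts with 0.5 added. Named genes were the 8 receptor genes, up to 4 called genes per list with the smallest p, CD2, LAT and FYN, and the 5 genes most like CD3E on each of 2 measures. Of the kinases and effectors 2 are not reported here and are left out of the list's counts. The alternatives were DESeq2 1.42.0, library totals, other filters, a replicate block, all 12 libraries in one fit, 5 added to counts, and leaving out each library. The test was tested on simulated counts that gave every gene the same relative spread and no pairing of libraries, unlike these data.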

Additional observations from a re-analysis of the deposited data

How the results depend on the processing

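With the replicate block the number of receptor genes called became 4 at 5 h and 1 for the difference between the times (CD8A, adjusted p = 0.033). For the difference the block called 1.76% of all genes. It also matches the 24 h libraries by number there, although the numbers do not pair them. The block gave 3 at 24 h, 4 in untreated and 5 in irradiated cells over time, where the numbers do not pair the libraries and it called 4.92%, 60.3% and 63.4% of all genes. DESeq2 called 5 at 24 h and 1 for the difference between the times. Leaving out 1 library gave 0 at 5 h, 1 to 4 at 24 h, 0 to 1 for the difference, 3 to 5 in untreated cells over time and 3 to 5 in irradiated cells over time. Of all genes these fits called 86 to 191 at 5 h, 293 to 1061 at 24 h and 76 to 168 for the difference. Over time they called 7219 to 8387 in untreated cells and 8338 to 9940 in irradiated cells. Over all genes, the calls at 5 h numbered 207, against 444 with DESeq2 and 2655 with the block. At 24 h they numbered 968, against 1715 with DESeq2 and 1670 with all 12 libraries in one fit, and for the difference 134, against 362 and 268 with DESeq2 and the block. Library totals moved the higher and lower calls at 24 h to 215 and 1045, against 258 and 710. In untreated cells over time they moved to 7063 and 2234, against 4383 and 4107, and in irradiated cells to 6968 and 2630, against 4956 and 4293.

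Signs turned as follows. In untreated cells over time, library totals gave CD8A 0.26 and CD8B 0.21. In irradiated cells over time LCK was 0.30 with library totals, 0.046 with the stricter filter and -0.23 to 0.051 without 1 library. Without 1 library CD4 ranged from -0.69 to 0.30 at 24 h and from -0.28 to 0.72 for the difference. At 5 h, without 1 library, CD2 ranged from -0.16 to 0.14 (-0.0026 with library totals), LAT from -0.0013 to 0.13 and PRKCQ from -0.26 to 0.0072, and at 24 h LAT from -0.33 to 0.12. Ratios without 1 library ranged at 5 h from -0.016 to 0.25 for CD8A over CD8B, -0.076 to 0.10 for CD247 over CD3E, -0.090 to 0.075 for CD8B over CD3E (0.0024 with 5 added) and -0.022 to 0.096 for LCK over CD3E. At 24 h they ranged from -0.26 to 0.10 for CD8B over CD3E and -0.035 to 0.25 for ZAP70 over CD3E. The cause was not tested. The same alternatives were read for the named list genes after the data had been seen. A receptor gene held at least 105 counts in each library, and each group held 3 libraries.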

Other observations

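One protein-coding row without a symbol (ENSLAFG00000011294) lies between CD3E and CD3G on scaffold 58, on the minus strand at 5989069 to 5993729. At 24 h it had 37.6, 42.4 and 44.6 CPM in irradiated libraries, against 68.4, 73.9 and 80.2 CPM in untreated libraries. It was lower in irradiated libraries, with a log2 fold change of -0.85 ± 0.10 (adjusted p = 0.0048, edgeR). At 5 h it had 34.1, 36.7 and 50.2 CPM in irradiated libraries, against 38.5, 47.9 and 67.0 CPM in untreated libraries, and the log2 fold change was -0.35 ± 0.22 (adjusted p = 0.57, and 0.00051 with the replicate block). In untreated cells it was higher at 24 h than at 5 h, by 0.58 on the log2 scale (adjusted p = 0.021). The row and its values were picked out for its position after the tables had been seen, and its name is not given in the files. Whether it is CD3D was not tested.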
